A study of Homo sapiens with 14 samples.

Results

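The libraries described here show what a free, untargeted RNA editor does to the transcripts of fixed cells. They are the 2 Enzyme-only libraries of the series, 1 made from 1 ng and 1 from 100 pg of total RNA, set against the 6 Buffer-only libraries, 3 at each input. Each of these 8 of the 14 libraries was assigned to its group by its label. All came from HEK293T cells (HEK293XT in the labels), a human embryonic kidney line, fixed in methanol on slides. Enzyme-only cells received Apo1-Nb, a bacterially made fusion of the cytidine deaminase APOBEC1 and a nanobody against rabbit antibodies, but no antibody for it to bind. Buffer-only cells received neither antibody nor enzyme. The remaining 6 libraries, in which the enzyme was tethered to an antibody against RBFOX2, were not used here. The question was which transcripts, regions and sequence contexts gain C-to-U edits when the editor is not tethered, and whether both inputs show the same.

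APOBEC1 deaminates cytosine to uracil in RNA. In the small intestine it edits the apolipoprotein B transcript together with an RNA-binding cofactor, and creates a stop codon that shortens the protein. The enzyme favours cytosines that follow an adenine or a uracil in AU-rich stretches, and many of its other described sites lie in 3′UTRs.

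The sites below are examples of edited positions in the data, and not all of them show these contexts. Each is 21 bases of transcript sequence from the hg38 genome, written 5′ to 3′ with U for T, and the capitals mark the edited C with the base before and the base after it. The first set holds, for each of the 6 genes called higher over both inputs (described further on), the Enzyme-only site with the most edited reads.

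HNRNPA3: aucuaaaauACGaagguuucu
STAG2: gccauuuugACAucaacucau
IPO7: uacauguauACAcaaaauauu
SLIT2: aguuaaugaUCAuuuggguug
DEK: aguucagugGCUuuccauuug
FAM135A: acaguucauGCAucauugguu

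The edited C followed an A in HNRNPA3, STAG2 and IPO7, a U in SLIT2 and a G in DEK and FAM135A. The windows are chr2:177222107-177222127 in the 3′UTR of HNRNPA3, chrX:124101861-124101881 in the 3′UTR of STAG2, chr11:9446601-9446621 in the 3′UTR of IPO7, chr4:20332023-20332043 in an intron of SLIT2, chr6:18256407-18256427 in the coding sequence of DEK and chr6:70477289-70477309 in the coding sequence of FAM135A. All lie on the plus strand except that of DEK. At these positions 12 of 43 reads were edited in HNRNPA3, 13 of 75 in STAG2, 17 of 28 in SLIT2 and 17 of 502 in DEK, each in the 100 pg library, and 5 of 105 in IPO7 and 5 of 14 in FAM135A in the 1 ng library.

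The second set holds positions edited in both Enzyme-only libraries and in none of the 6 Buffer-only libraries, 1 for each of the 10 genes with the most such positions. Only SGO1-AS1, TFDP1 and HMGN1 had more than 1, so the other 7 genes were ordered by edited reads.

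SGO1-AS1: guuagcuuuUCUuuucucuuc
TFDP1: acacucuuuUCUcucccuguu
HMGN1: ccuucuuguACAauccagagg
DPM1: cuaaaggcuACGucuuccaga
EXOC6B: augguagauUCUcuaagucua
AP1S2: aguacuuauACAuaucuaaac
PSMA4: aauguucugACUaaugaacua
NDUFAF4: gaaagcaauACGaucaaaaug
PIBF1: uaugccuauACUaggcaggaa
XRCC5: aaggggagcACAauuucccuu

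In each of these 10 sites the edited C follows an A or a U. The windows are chr3:20174634-20174654 (SGO1-AS1, intron), chr13:113640873-113640893 (TFDP1, 3′UTR), chr21:39343054-39343074 (HMGN1, 3′UTR), chr20:50936195-50936215 (DPM1, coding), chr2:72657734-72657754 (EXOC6B, intron), chrX:15826208-15826228 (AP1S2, 3′UTR), chr15:78544230-78544250 (PSMA4, coding), chr6:96891105-96891125 (NDUFAF4, coding), chr13:72973048-72973068 (PIBF1, intron) and chr2:216205814-216205834 (XRCC5, 3′UTR). HMGN1, DPM1, EXOC6B, AP1S2 and NDUFAF4 are read from the minus strand and the others from the plus strand.

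Free enzyme added sites to transcripts, on the strand of the gene, and the gain was larger at the higher input. An edit site is a position that the authors called as C-to-U with a SAILOR score above 0.5. At 1 ng the Enzyme-only library held 27211 gene-strand sites (sites read from the same strand as a gene that covers them), and the Buffer-only libraries 11057, 12274 and 12220. At 100 pg it held 14968 against 10949, 10667 and 9728. The gain was 2.30-fold at 1 ng and 1.43-fold at 100 pg. The library kit is not stated to keep strand, so sites called opposite to the gene may come from reads of its own transcript. Opposite-strand sites numbered 9188 against 8316, 9132 and 9054 at 1 ng and 8687 against 9007, 8973 and 7912 at 100 pg. The Enzyme-only value was the highest of the 4 at 1 ng and lay inside the Buffer-only range at 100 pg, and this difference did not exceed the library-to-library spread (p = 0.75, exact permutation within input, two-sided). Of all sites with a gene, 74.8% lay on the gene strand at 1 ng (95% Wilson interval 74.3 to 75.2) against 57.3% ± 0.19 in Buffer-only (SD, n = 3), and 63.3% (62.7 to 63.9) against 54.8% ± 0.42 at 100 pg. The number of genes with at least 1 such site was 8713 against 6528 ± 184 and 7182 against 6231 ± 250. With 1 Enzyme-only library per input the exact permutation test has 16 arrangements and cannot give p below 0.0625, the value found for the gene-strand number, its share and the genes (0.0991 after Benjamini-Hochberg adjustment over 111 measures), so none of the comparisons per library can reach 0.05.

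Nearly all of the added sites followed an adenine or a uracil. At 1 ng the Enzyme-only library held 19772 gene-strand sites after A or U, and Buffer-only 5681 ± 407, a 3.48-fold difference. After C or G it held 7439 against 6169 ± 281, a 1.21-fold difference. At 100 pg the folds were 1.81 (8976 against 4965 ± 261) and 1.09 (5992 against 5483 ± 379). Of the excess over the Buffer-only mean, 91.7% at 1 ng and 88.7% at 100 pg lay after A or U. On the opposite strand the share after A or U was 56.4% against 56.0% ± 0.59 at 1 ng and 54.2% against 53.9% ± 0.45 at 100 pg (exact permutation p = 0.375).

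**Figure D1:**
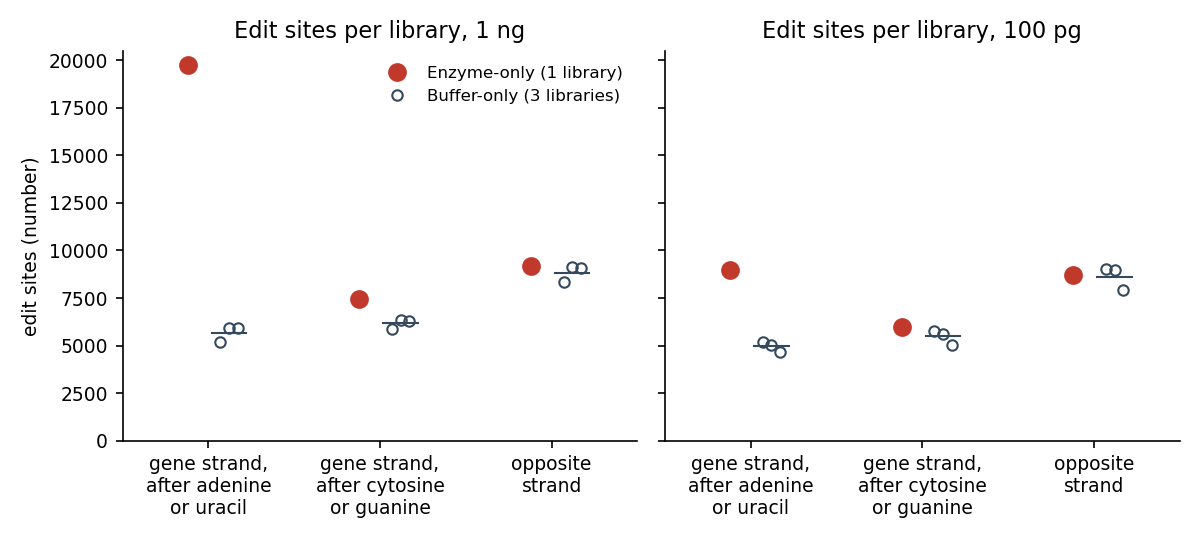
Number of edit sites per library (y axis) on the gene strand after adenine or uracil, on the gene strand after cytosine or guanine, and on the opposite strand, at 1 ng (left) and 100 pg (right). Filled points are the single Enzyme-only library, open points the 3 Buffer-only libraries with their mean as a line. Only the first class is far above Buffer-only, with 19772 sites at 1 ng and 8976 at 100 pg.

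The base on either side of the edited cytosine ordered the gain in nearly the same way at both inputs. A preceded 39.3% of the Enzyme-only sites at 1 ng and 20.04% ± 0.34 of the Buffer-only sites, and 30.4% against 20.2% ± 0.44 at 100 pg. U preceded 33.4% against 27.9% ± 0.70, and 29.5% against 27.3% ± 0.09. By triplet, the largest fold over Buffer-only was that of ACU, with 4604 sites against 704 ± 54.0 at 1 ng (6.54-fold) and 1610 against 530 ± 19.04 at 100 pg (3.04-fold). ACA followed with 4.49-fold and 2.17-fold, then UCU with 3.35-fold and 1.86-fold, and UCA with 2.91-fold at 1 ng. At the other end CCC held 746 sites against 710 ± 24.7 at 1 ng (1.05-fold) and 733 against 732 ± 27.7 at 100 pg (1.00-fold). At 100 pg ACG, with 1.70-fold, stood above UCA, with 1.60-fold.

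**Figure D2:**
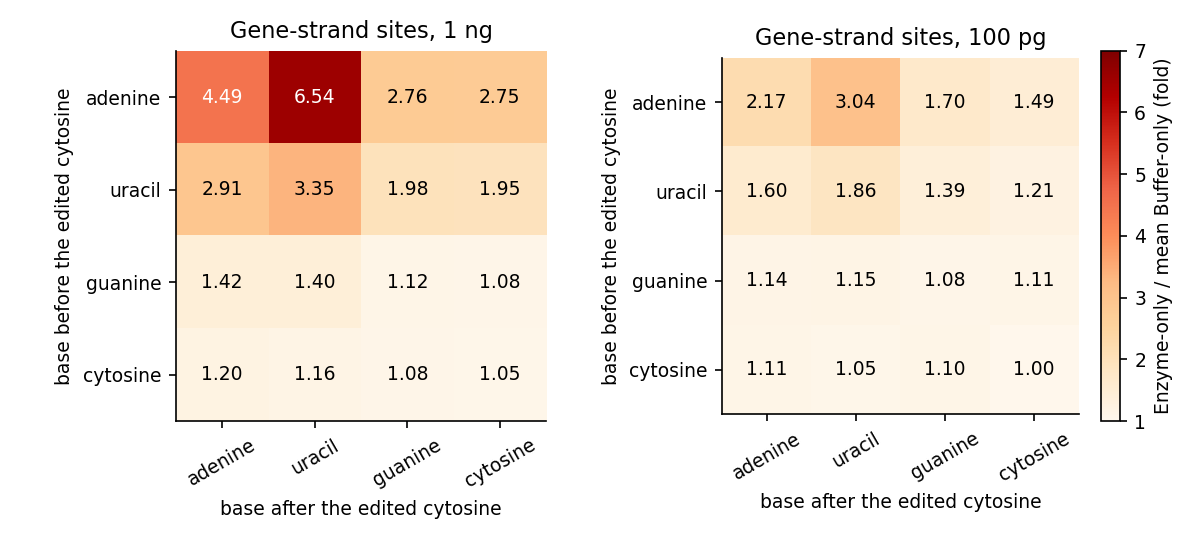
Fold of gene-strand sites in the Enzyme-only library over the mean of 3 Buffer-only libraries for each base before (rows) and after (columns) the edited cytosine, at 1 ng (left) and 100 pg (right); the colour scale is the same in both. The top rows carry the gain, up to 6.54 at 1 ng and 3.04 at 100 pg, and the row of cytosine stays between 1.00 and 1.20.

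The wider surroundings were richer in A and U as well. Within 30 bases on either side, A and U made up 58.4% of the sequence of Enzyme-only sites at 1 ng and 53.7% ± 0.35 in Buffer-only, and 55.5% against 53.2% ± 0.25 at 100 pg (exact permutation p = 0.0625 for both inputs together, the smallest possible). UGAU, the core of the mooring sequence that stands downstream of the edited base in apolipoprotein B RNA, began 3 to 10 bases after 3.81% of the Enzyme-only sites at 1 ng (3.59 to 4.05) and 3.24% ± 0.10 of the Buffer-only sites. At 100 pg the shares were 3.35% (3.07 to 3.65) and 3.23% ± 0.28, and over both inputs the difference was within the spread between libraries (exact permutation p = 0.3125).

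The gene-strand sites shifted towards 3′UTRs, and the shift lay in the sites after A or U. At 1 ng 35.3% of the Enzyme-only sites lay in 3′UTRs against 29.7%, 29.0% and 28.7% in Buffer-only, and at 100 pg 29.4% against 23.4%, 24.6% and 24.2%. The Enzyme-only library was above every Buffer-only library at both inputs. Among sites after A or U the 3′UTR share was 37.8% against 29.4% ± 0.35 at 1 ng and 33.04% against 24.3% ± 0.80 at 100 pg (exact permutation p = 0.0625). Among sites after C or G it was 28.9% in both groups at 1 ng (SD of Buffer-only 0.62) and 24.0% against 23.8% ± 0.65 at 100 pg (exact permutation p = 0.9375). On the opposite strand it was 24.6% against 25.6% ± 0.64 and 22.3% against 21.8% ± 0.58 (exact permutation p = 0.6875).

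Introns held a smaller share with the enzyme, mainly at the lower input. Introns held 31.5% of the Enzyme-only sites at 1 ng against 32.03% ± 1.7 and 34.1% at 100 pg against 39.6% ± 0.60 (exact permutation p = 0.125 over both inputs). Among sites after A or U the intron share was 32.2% against 35.9% ± 1.3 and 33% against 43.4% ± 1.0. Without the sites that lie under genes of both strands the intron share at 1 ng was 2.47 percentage points higher with the enzyme rather than 0.51 lower (−0.51), so its direction at that input depends on this choice. Coding sequence held 22.1% against 25.3% ± 0.95 at 1 ng and 24.0% against 23.5% ± 0.43 at 100 pg, within the spread at the lower input. As shares of the excess, 3′UTRs took 40.1% at 1 ng and 41.9% at 100 pg, coding sequence 19.7% and 25.04%, and introns 31.1% and 21.4%. Sites in genes for long noncoding RNAs made up 6.78% of the Enzyme-only sites against 10.2% ± 0.07 at 1 ng and 8.32% against 10.9% ± 0.44 at 100 pg.

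**Figure D3:**
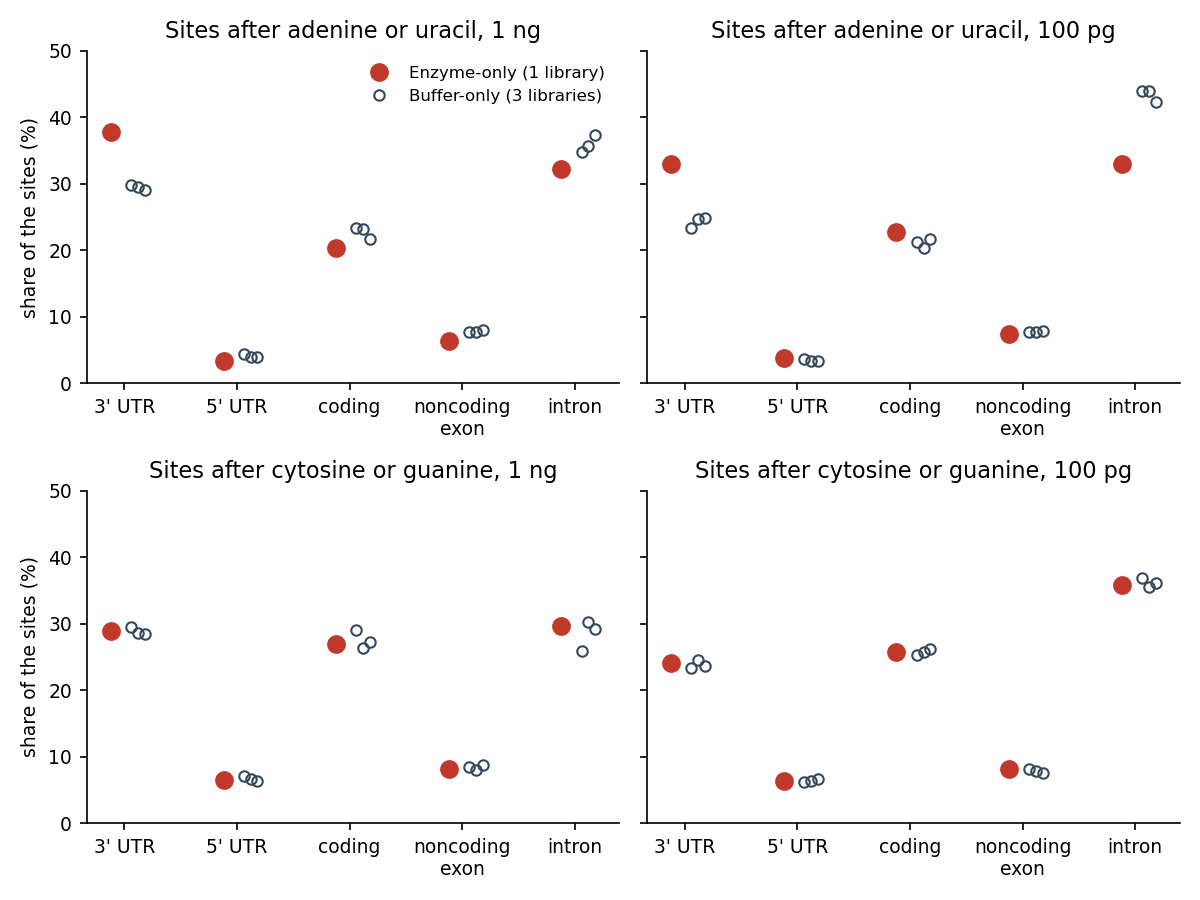
Share of gene-strand sites in each region (y axis, percent) for sites after adenine or uracil (top) and after cytosine or guanine (bottom), at 1 ng (left) and 100 pg (right). Filled points are the Enzyme-only library and open points the 3 Buffer-only libraries. The 3′UTR share is raised in the top panels, 37.8% and 33.04%, and lies at the Buffer-only level in the bottom panels, 28.9% and 24.0%.

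The edited share of single sites differed little. The median gene-strand site had 7.14% of its reads edited in the Enzyme-only library at 1 ng against 6.46% ± 0.21, and 7.61% against 6.77% ± 0.19 at 100 pg. On the opposite strand the Enzyme-only median was also 7.14% at 1 ng, and 6.67% at 100 pg. The gene-strand difference over both inputs, 0.76 percentage points, was 0.28 with a SAILOR score of at least 0.9 (exact permutation p = 1) and 0.49 with coverage of at least 20. At least 2 edited reads supported 44.7% of the sites against 34.5% ± 1.1, and 50.7% against 32.6% ± 1.2. The median coverage of a gene-strand site was 20 reads in both groups at 1 ng, but 26 against 20.7 ± 0.58 at 100 pg. The part of this deeper coverage in the 100 pg results was not tested beyond the coverage minimums given in the closing section. Read numbers are not molecules, so the intervals cover counting error only.

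By gene, edits were spread thinly. The most sites in any 1 gene were 112 in the Enzyme-only library at 1 ng and 42 at 100 pg, both in SLIT2. In the Buffer-only libraries the most were 19 to 32, also the numbers of SLIT2. The 100 genes with the most sites held 7.42% and 7.55% of all gene-strand sites in Enzyme-only, against 6.91% to 7.31% in Buffer-only libraries. Genes with 10 or more sites numbered 339 at 1 ng against 15 to 22 in Buffer-only, and 64 at 100 pg against 8 to 19. A single site was held by 37.2% of the genes with any at 1 ng against 55.5% to 59.3%, and by 52.3% at 100 pg against 60.1% to 62.6%.

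Relative to the rest of the transcriptome, few genes were called. In simulation the fit over both inputs found 83% of 4-fold but only 7% of 2-fold changes, so few calls do not mean few changes. Gene-strand sites were counted for each gene and compared by the quasi-likelihood test of edgeR with TMM scaling, which centres the changes on the typical gene. Of 1098 genes with at least 20 sites over the 8 libraries, 6 were called higher (0.546%) and 3 lower (0.273%) over both inputs at an adjusted p under 0.05, and 114 had an unadjusted p under 0.05. DESeq2 called 0, with 36 at an unadjusted p under 0.05. Within 1 input edgeR called 0 of 1737 genes at 1 ng (0% in either direction, 160 at an unadjusted p under 0.05) and 0 of 801 at 100 pg (0%, 61 at an unadjusted p under 0.05). DESeq2 also called 0 at each input, with 8 and 7 genes at an unadjusted p under 0.05. There the Enzyme-only group is 1 library, assumed to vary like Buffer-only. Over both inputs the calls rest on single Buffer-only libraries: without 1 of them 0 to 6 genes were called higher and 0 to 2 lower, with 0 higher without replicate 3 of either input, 1 and 2 without replicates 2 and 1 of 1 ng, and 0 lower without any 1 ng replicate or replicate 3 of 100 pg. At 100 pg alone, leaving out replicate 2 gave 7 higher and 1 lower. The minimum for testing favours genes that are high in 1 group. In 5 of the 6 genes called higher, all but SLIT2, the Buffer-only libraries together held 2 to 12 sites, so these genes reached 20 sites only through the Enzyme-only libraries, where they are high. HOXA-AS3 and ENSG00000291205, called lower, reached it only through Buffer-only, with 47 and 45 sites against 8 in each. In site numbers as counted, the Enzyme-only library lay above every Buffer-only library at both inputs in 336 of the 1098 genes (30.6%), at 1 ng in 803 and at 100 pg in 438.

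The scale decides how many genes are called. TMM left the median log2 fold change of the 1098 genes at 0.05. Scaled instead to the opposite-strand sites of the same library, which did not differ between the groups beyond their spread, the median was 0.94, and 188 of the 1098 genes were called higher (17.1%) and 0 lower. On that scale 26 of 1737 genes were called higher at 1 ng (1.5%) and 12 of 801 at 100 pg (1.5%), each with 0 lower.

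HNRNPA3, which encodes a nuclear ribonucleoprotein that binds pre-mRNA (chromosome 2, 177212694 to 177223959, plus strand), held 9 sites with the enzyme at 1 ng against 2, 3 and 1, and 20 at 100 pg against 0, 2 and 1. Its log2 fold change over both inputs was 2.36 ± 0.56 (SE; edgeR adjusted p = 0.028). Of its 29 Enzyme-only sites 26 lay in the 3′UTR and 26 followed A or U, and 27 lay where another gene overlaps it, such as NFE2L2 on the other strand.

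STAG2, a subunit of the cohesin ring (chromosome X, 123960212 to 124422664, plus strand), held 10 sites against 0, 4 and 3 at 1 ng and 19 against 2, 2 and 1 at 100 pg, a log2 fold change of 1.96 ± 0.53 (edgeR adjusted p = 0.0346). Its 29 Enzyme-only sites comprised 15 in the 3′UTR and 8 in coding sequence. DEK, a chromatin protein (chromosome 6, 18223860 to 18264548, minus strand), held 7 against 2, 0 and 0 and 13 against 1, 1 and 0, with a log2 fold change of 2.93 ± 0.73 (edgeR adjusted p = 0.0346) and 14 of its 20 sites in the 3′UTR. In these 3 genes no Buffer-only library reached the Enzyme-only number at either input. That was part of the rule that named them, and it held for 336 of the 1098 genes (30.6%). All 3 reached 20 sites only through the Enzyme-only libraries, where they are high. Their Enzyme-only number was larger at 100 pg than at 1 ng, unlike the total number of sites.

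In FAM135A and IPO7 the sites came almost wholly from the 1 ng library. FAM135A (chromosome 6, 70412941 to 70561174, plus strand) held 18 sites against 0, 0 and 1 at 1 ng and 2 against 1, 0 and 0 at 100 pg. IPO7, a nuclear import receptor (chromosome 11, 9384652 to 9448127, plus strand), held 19 against 0, 1 and 0 at 1 ng, and at 100 pg 1 against 0, 1 and 0, where the groups overlap. Their log2 fold changes were 3.36 ± 0.87 and 3.30 ± 0.87 (edgeR adjusted p = 0.0346 for both), with 2 Buffer-only sites in all for each gene. Both genes reached 20 sites only through the Enzyme-only libraries, where they are high. Most of their Enzyme-only sites lay in the 3′UTR, 12 of 20 in FAM135A and 14 of 20 in IPO7. Of all 20 in each gene, 14 and 19 followed A or U.

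SLIT2, a secreted guidance ligand of ROBO receptors (chromosome 4, 20251905 to 20620561, plus strand), held the largest number of sites in every library, with or without enzyme. It held 112 against 29, 32 and 25 at 1 ng and 42 against 21, 20 and 19 at 100 pg. The lack of overlap was part of the rule that named it. Its log2 fold change was 0.63 ± 0.12 (edgeR adjusted p = 0.0346). Unlike the other 5 genes called higher it was edited mainly in introns, which held 142 of 154 sites, and 126 sites followed A or U. On the opposite strand of SLIT2 the Enzyme-only libraries held 19 and 18 sites and the Buffer-only libraries 21 to 31.

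The 3 genes called lower are noncoding, and scaled to opposite-strand sites none of them was called. HOXA-AS3, an antisense transcript of the HOXA cluster (chromosome 7, 27129977 to 27155928, plus strand), held 3 sites against 7, 11 and 9 at 1 ng and 5 against 8, 7 and 5 at 100 pg (log2 fold change −1.87 ± 0.51, edgeR adjusted p = 0.0381). ENSG00000291205 (chromosome 14, 19301704 to 19316914, plus strand) held 5 against 8, 8 and 9 and 3 against 7, 11 and 2 (−1.84 ± 0.52, adjusted p = 0.0487). DUXAP10, a transcribed pseudogene (chromosome 14, 19268853 to 19337730, minus strand), held 26 against 23, 21 and 24 and 12 against 12, 13 and 13 (−0.93 ± 0.22, adjusted p = 0.0479). The site numbers of DUXAP10 lay near those of Buffer-only at both inputs, and on the opposite-strand scale its change turned to 0.05 ± 0.30 (edgeR adjusted p = 0.918). Sites of HOXA-AS3 and ENSG00000291205 all lay where another gene overlaps, and DUXAP10 has near-identical copies, so the gene of their reads is uncertain.

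**Figure D4:**
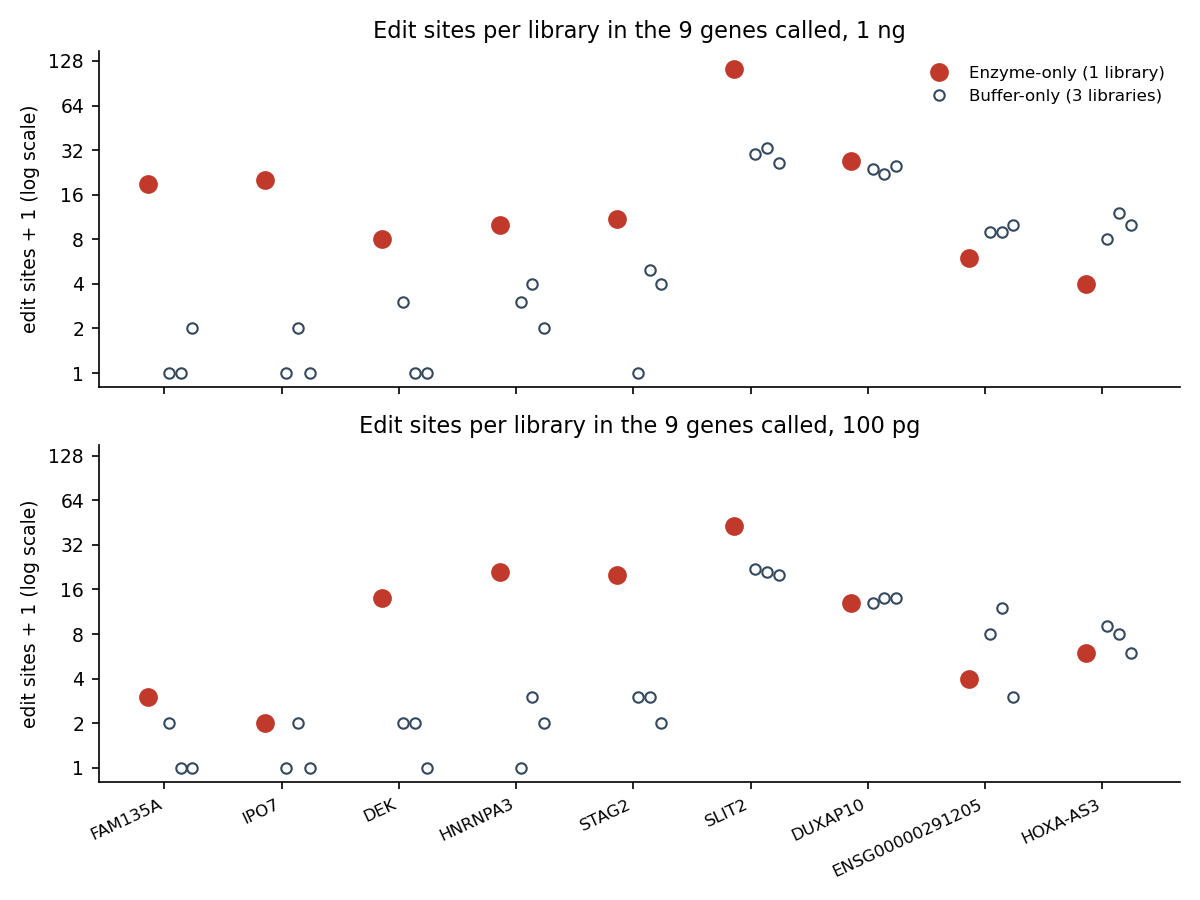
Edit sites on the gene strand plus 1 (y axis, log scale) in each library for the 9 genes called by edgeR over both inputs, at 1 ng (top) and 100 pg (bottom), ordered by fold change. Filled points are the Enzyme-only library and open points the 3 Buffer-only libraries. The first 5 genes hold at most 4 sites in a Buffer-only library, SLIT2 holds 112 and 42 Enzyme-only sites, and the last 3 lie within the Buffer-only range at 100 pg.

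None of the gene groups had a member called lower. Together the lists held 110 genes with enough sites, of which 3 were called higher under TMM (HNRNPA3, DEK and STAG2). Scaled to opposite-strand sites, 32 were called higher and 0 lower. For comparison, over all 1098 genes 6 (0.546%) and 188 (17.1%) were called higher on these scales. Most lists had few genes tested, so their counts are a description only.

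RNA-binding and splicing factors had 39 of 48 genes tested, with 1 called higher under TMM and 12 on the opposite-strand scale, and a median log2 fold change of 0.31 under TMM beside 0.05 for all genes. On the opposite-strand scale HNRNPDL, a paralogue of hnRNP D, held 7 sites against 1, 1 and 2 at 1 ng and 8 against 0, 1 and 1 at 100 pg (2.74 ± 0.73, edgeR adjusted p = 0.00551), and SRSF10, a splicing regulator, held 17 against 1, 3 and 2 and 7 against 2, 1 and 3 (2.44 ± 0.56, adjusted p = 0.00187). In neither did a Buffer-only library reach the Enzyme-only number, which also held for 336 of the 1098 genes (30.6%) and for 15 of the 39 in this list. Under TMM neither was called. HNRNPDL and SRSF10 reached the minimum for testing only through the Enzyme-only libraries, where they are high.

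Chromatin proteins had 16 of 30 genes tested, with DEK and STAG2 called under TMM, 6 called on the opposite-strand scale and a median of 0.25 under TMM. On the opposite-strand scale 17.1% of all 1098 genes were called higher. RAD21, another cohesin subunit, held 7 sites against 2, 2 and 2 and 13 against 0, 1 and 2 (2.60 ± 0.62 on the opposite-strand scale, edgeR adjusted p = 0.00284). Cell division genes had 11 tested and 3 called on that scale, with a median of 0.21 under TMM, among them CCNB2, the cyclin B2 gene, with 4 sites against 2, 0 and 0 and 12 against 0, 1 and 1 (3.30 ± 0.78, adjusted p = 0.00278). Genes of ubiquitin and the proteasome had 13 tested and 4 called on that scale, translation factors 7 and 3, membrane traffic 8 and 1, chaperones 4 and 1, and glycolysis 2 and 0. None of these last groups had a call under TMM, and their medians under TMM were 0.33, 0.22, 0.23, 0.94 and 0.25. RAD21 and CCNB2, like DEK and STAG2, reached the minimum for testing only through the Enzyme-only libraries, where they are high.

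The transcripts named in connection with APOBEC1 itself held few sites. APOBEC1, its cofactors A1CF and RBM47, and APOB, the classical substrate, held 0 sites in all 8 libraries. A site can be called only where reads cover the transcript, and whether these genes were expressed was not tested. Of 10 genes for APOBEC1 and its partners 3 were tested, with 0 called under TMM, 1 on the opposite-strand scale and a median of 0.29 under TMM. HNRNPC, a nuclear ribonucleoprotein also linked to the editing complex, held 15 sites against 4, 3 and 2 and 6 against 1, 0 and 1. It was called on the opposite-strand scale (2.42 ± 0.59, edgeR adjusted p = 0.00287) but not under TMM (adjusted p = 0.367). HNRNPC reached the minimum for testing only through the Enzyme-only libraries, where it is high. Of 18 transcripts described as APOBEC1 substrates in other cells only NF1, APP and CMTM6 had enough sites to test, and none was called on either scale (median 0.46 under TMM). Over the 18 together the Enzyme-only library held 71 sites against 21.7 ± 5.9 at 1 ng and 30 against 21 ± 2.6 at 100 pg, folds of 3.28 and 1.43, while all genes together gave 2.30 and 1.43. The fold at 1 ng was not particular to these transcripts. Apart from markers of other cell types, with 2 Enzyme-only sites, the other lists gave 2.11 (nuclear-retained noncoding RNAs) to 3.42 (membrane traffic). TMEM30A, a membrane protein of the flippase complex, held 5 sites at 1 ng and 0 in each of the other 7 libraries.

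Nuclear-retained and mitochondrial transcripts gave few genes to test. Of nuclear-retained noncoding RNAs 4 were tested and 1, NEAT1, the scaffold of paraspeckles, was called on the opposite-strand scale (25 sites against 6, 7 and 9 and 10 against 0, 4 and 3; 1.81 ± 0.44, edgeR adjusted p = 0.00284). The median of the 4 under TMM was −0.48. MALAT1, the abundant RNA of nuclear speckles, held 5 sites against 6, 1 and 2 and 5 against 4, 2 and 3, so that the groups overlap. Of 15 mitochondrially encoded transcripts 10 held no site in any library, and MT-CO1, a subunit of cytochrome oxidase, held 9 against 3, 3 and 6 and 0 against 1, 3 and 0. The 22 ribosomal protein genes held 26 sites in all against 9.33 ± 4.2 at 1 ng and 16 against 15 ± 3.5 at 100 pg, and none had enough to test. A last list holds genes already picked as examples from libraries of this series, so its count is not independent evidence. Of its 8 genes 6 were tested, 0 were called under TMM (median 0.38) and 2, DEPDC1 and XPO1, on the opposite-strand scale. DEPDC1, unlike XPO1, reached the minimum for testing only through the Enzyme-only libraries, where it is high.

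Markers of the cell line held few sites. Of 7 genes known from HEK293T cells 6 carried sites, all but PAX2, with 19 sites in all against 7 ± 3 at 1 ng and 7 against 7 ± 1.7 at 100 pg. Of 14 markers of other cell types 12, among them albumin, the globins and PTPRC, held no site in any library.

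Agreement between the inputs at the level of genes was weak. Of the 8713 genes edited at 1 ng and 7182 at 100 pg in Enzyme-only, 5154 were edited at both, which is 59.2% of the first and 71.8% of the second. Over the 578 genes tested at both inputs, whose Buffer-only libraries are separate, the log2 fold changes had the same sign in 315 (54.5%), and their correlation across genes was 0.10 (Pearson) and 0.13 (Spearman), a description over genes that share libraries. None of the 578 genes was higher at an unadjusted p under 0.05 at both inputs. Few genes reached that level at either input, and in simulation these fits found few 2-fold changes, so this absence decides little. The interaction of enzyme and input was called by edgeR in 0 of the 1098 genes, with 84 at an unadjusted p under 0.05, and by DESeq2 in 0, with 15 at an unadjusted p under 0.05. Sites in both Enzyme-only libraries and in none of the Buffer-only libraries were held by 160 genes. The most were in OCIAD1 with 9 and 1, RNF141 with 8 and 2, and SGO1-AS1 with 3 and 6.

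At single positions the Enzyme-only libraries of both inputs shared more positions by number and fewer by share than Buffer-only pairs did. The pair of Enzyme-only libraries shared 892 positions, 2.35% of the sites at 1 ng and 3.59% of those at 100 pg. The 9 pairs of a 1 ng and a 100 pg Buffer-only library shared 748 to 867, which was 3.62% to 3.94% and 3.74% to 4.38% of their sites, so that by share the Enzyme-only pair was the lower. The number also depended on the filter: with a SAILOR score of at least 0.9 it was 582, inside the 509 to 586 of Buffer-only pairs, and with coverage of at least 10 it was 722 against 613 to 717, while a mixed pair reached 729. On the gene strand it shared 359 against 228 to 298, and on the opposite strand 417 against 400 to 451. A further count shows the fixed background: 209 positions were present in all 8 libraries.

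With positions found in any other library left out, the Enzyme-only pair shared 173 positions, 118 of them on the gene strand. The Buffer-only pairs shared 68 to 113, with 25 to 51 on the gene strand, and the 6 pairs of an Enzyme-only and a Buffer-only library at most 54 on the gene strand. By number the Enzyme-only pair ranked first of the 16 pairs (exact permutation p = 0.0625, the smallest possible), but its libraries also held the most sites. The 173 positions were 0.455% of the sites at 1 ng, inside the 0.331% to 0.501% of Buffer-only pairs (exact permutation p = 0.25), and 0.697% of those at 100 pg, above their 0.326% to 0.535% (exact permutation p = 0.0625). On the opposite strand it shared 48, inside the 31 to 60 of the Buffer-only pairs.

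**Figure D5:**
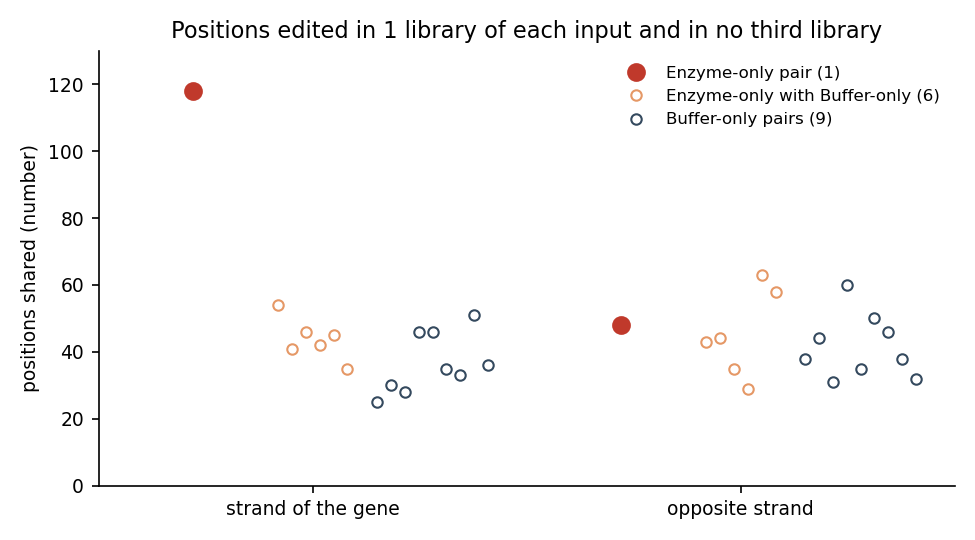
Number of positions (y axis) edited in 1 library of 1 ng and 1 of 100 pg and in none of the other libraries, on the strand of the gene (left) and the opposite strand (right). Each point is a pair of libraries: the Enzyme-only pair, the 6 mixed pairs and the 9 Buffer-only pairs. The Enzyme-only pair shares 118 positions on the gene strand, above all other pairs, and 48 on the opposite strand, within their range.

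These 118 positions lay in 114 genes. By region, 53 (44.9%) were in 3′UTRs, 28 in coding sequence and 25 in introns. The 3′UTR share was 19.6% to 36.1% for the Buffer-only pairs and 26.7% to 50% for the mixed pairs, so a mixed pair was higher. Among the 118 positions A or U preceded the edited base in 74.6%, against 35.7% to 54.3% for the Buffer-only pairs and 46.3% to 71.4% for the mixed pairs. ACU (25 positions), ACA (19) and UCU (14) were the most frequent triplets, and U stood 3 bases before the edited C in 43.2% and in 34.1% of all Enzyme-only sites at 1 ng. The median position was edited in 3.10% of reads at 1 ng and 6.90% at 100 pg, and the percentages had a Spearman correlation of 0.47 over the 118 positions, which share both libraries. In 21 positions both libraries had only 1 edited read.

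The 10 named positions, printed above, ranged widely in how deeply they were edited. PSMA4, a proteasome subunit, had the best covered, with 13 of 824 reads edited at 1 ng (1.58%) and 9 of 772 at 100 pg (1.17%). NDUFAF4, an assembly factor of respiratory complex I, had 8 of 240 (3.33%) and 13 of 266 (4.89%), and TFDP1, the partner of E2F factors, 6 of 139 (4.32%) and 10 of 111 (9.01%). The percentages at the 2 inputs lay closer in PSMA4 and NDUFAF4 than in TFDP1, where that at 100 pg was the higher.

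In DPM1, EXOC6B, PIBF1 and XRCC5 the edited share was several times larger at 100 pg. These positions were picked by edited reads summed over both inputs, which favours those high at 1 input. Each value rests on 1 library, and the cause of the difference was not tested. DPM1, which makes dolichol phosphate mannose, had 2 of 98 reads edited at 1 ng (2.04%) and 21 of 61 at 100 pg (34.4%). EXOC6B, of the exocyst, had 2 of 31 (6.45%) and 21 of 37 (56.8%), and PIBF1, a centrosomal protein, had 1 of 17 (5.88%) and 19 of 47 (40.4%). XRCC5, the Ku80 protein of DNA end joining, had 4 of 94 (4.26%) and 15 of 58 (25.9%), and AP1S2, an adaptor of clathrin coats, 6 of 93 (6.45%) and 16 of 113 (14.2%), a rise of about the size of that in TFDP1. Too few reads were edited in the last pair of sites for a comparison. HMGN1, a nucleosome-binding protein, had 2 of 9 and 2 of 6 reads edited, and SGO1-AS1 1 of 61 and 2 of 25. Genes of the other strand overlap the positions in SGO1-AS1, DPM1 and AP1S2.

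Edit clusters, groups of neighbouring edits that the authors called with FLARE, followed the sites. The Enzyme-only library held 22370 clusters at 1 ng against 9982, 11004 and 11028, and 12837 at 100 pg against 9912, 9629 and 8864. The median cluster held 2 edited bases with the enzyme and 1 in every Buffer-only library. With a FLARE score of at least 0.99, 11082 clusters remained against 7248 ± 560 at 1 ng, and 6488 against 6445 ± 483 at 100 pg, a difference within the spread. Of the Enzyme-only clusters at 1 ng 841 overlapped a cluster of the other input on the same strand, against 381 to 451 in Buffer-only pairs (exact permutation p = 0.0625, the smallest possible). As a share this was 3.76% of the clusters at 1 ng, below the 3.82% to 4.50% of Buffer-only pairs, and 6.54% of those at 100 pg, above their 4.07% to 4.92%. The Enzyme-only library at 1 ng paired with a Buffer-only library already gave 5.85% to 6.12% of the clusters at 100 pg. With overlap of at least 50% of both clusters the Enzyme-only pair gave 4.42% and the highest mixed pair 4.43% (exact permutation p = 0.125).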

How the data were processed

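Edits were measured by RNA sequencing of 8 libraries, grouped by the sample labels. Per the study's methods, replicates are separate slides and are called technical, and both inputs may come from the same RNA, so p-values measure technical spread. The authors trimmed reads with cutadapt, aligned them with STAR to hg38 and called sites with SAILOR and clusters with FLARE. The library kit is not stated to keep strand. Reads of overlapping antisense genes may therefore not be separable, and opposite-strand sites may come from the gene's own reads. Per site, the deposited files give a SAILOR score (above 0.5), counts of edited and of all reads, and the edit fraction (below 0.8 as named). Per cluster the deposited files give counts, an edit fraction, a depth signal and a FLARE score (false discovery rate 0.1, edits merged within 15 nt).

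Each site was placed on hg38 with Gencode 44. Where transcripts differed, a 3′UTR took precedence, then a 5′UTR, a coding exon, a noncoding exon and an intron. Sites with a gene on both strands counted for the gene strand. Values per library were compared by exact permutation within input. Sites per gene with at least 10 sites over 4 libraries (20 over 8) were tested with edgeR 4.0.16 in R 4.3.3, with input as covariate over both, and Benjamini-Hochberg adjustment at 0.05; DESeq2 1.42.0 was an alternative. Other steps used Python 3.11.15, pandas 2.3.3, scipy 1.17.1, bedtools 2.31.1 and matplotlib 3.10.9. Tested on a single draw of simulated counts, the fit over both inputs (1098 genes) found 83% of the 4-fold and 7% of the 2-fold changes. In that draw 4 of its 94 calls were false. The spread was set in advance, not estimated from these libraries, and all changes were increases, so the real data may differ. At 1 ng (1737 genes) recovery was 49% and 4%, and at 100 pg (801 genes) 15% and 1.25%. No site was covered by fewer than 5 reads, and total read numbers were not used here.

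Genes were named by rule: called over both inputs with the Enzyme-only library beyond all Buffer-only libraries at both inputs (raw numbers when higher, TMM-scaled when lower), the 10 genes with most positions found in both Enzyme-only libraries alone, and called list members. IPO7, list examples and the genes without Buffer-only sites were picked with their values in view. The comparison and the 16 gene lists, markers included, were chosen with earlier results of these data known. RBFOX2 libraries and lists over replicates were not used.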

Additional observations from a re-analysis of the deposited data

How the results depend on the processing

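Of 30 measures per library under 10 other settings, 297 of 300 comparisons kept their direction; none can pass 0.05. The coding share over both inputs was −1.35 percentage points and became 0.17 with a SAILOR score of at least 0.9. The 3′UTR share after C or G, 0.11, lay between −0.01 (−0.0075) and 0.30 (0.299) without 1 Buffer-only replicate. The intron difference, −3.00, ranged from −7.05 (score of at least 0.9) to −1.25 (genes on both strands left out). With coverage of at least 10 or 20 the directions held. Opposite-strand positions shared, 11 below the median Buffer-only pair (−11), lay 7 above it at a score of at least 0.9 and 10 above with positions of other libraries left out; the shares of positions, lower than Buffer-only, then turned higher, by 0.069 (1 ng) and 0.29 (100 pg) percentage points. The cause was not tested for these.

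Of genes over both inputs, 6 were called higher and 3 lower. Raw numbers gave 196 higher and 0 lower, opposite-strand scaling 188 and 0, DESeq2 0 and 0, edited reads 0 and 7, coverage of at least 10 gave 2 and 0, and filterByExpr (24 genes tested) 1 and 2, and a score of at least 0.9 (215 tested) 4 and 2. No minimum gave 0 lower, and leaving out positions present in all 8 libraries 1 lower. At 1 ng edited reads gave 3 higher and 10 lower, filterByExpr 1 higher and opposite-strand scaling 26. At 100 pg a score of at least 0.9 gave 1 higher, opposite-strand scaling 12 and edited reads 1 lower. Without 1 Buffer-only replicate the calls over both inputs ranged from 0 to 6 higher and 0 to 2 lower: 0 higher without replicate 3 of either input, 2 without replicate 1 and 1 without replicate 2 of 1 ng, and 0 lower without any 1 ng replicate or replicate 3 of 100 pg. At 100 pg alone they ranged from 0 to 7 higher and 0 to 1 lower, the 7 and 1 without replicate 2. These fits also test fewer genes. STAG2 and ENSG00000291205 were called in 0 of these 6 fits over both inputs, HOXA-AS3 in 1, FAM135A, IPO7, SLIT2 and DUXAP10 in 2, and HNRNPA3 and DEK in 3; all kept their direction. DUXAP10 turned to 0.088 with raw numbers and 0.051 with opposite-strand scaling. No paired analysis was possible because Enzyme-only has 1 library per input and shares fewer than 2 replicate numbers with Buffer-only.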
